A study of Homo sapiens with 2 samples.

Results

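The 5 genes described here are ATF4, the transcription factor of the integrated stress response, DDIT4 and SESN2, which encode inhibitors of the mTORC1 growth kinase, and PSAT1 and SHMT2, which encode enzymes of serine synthesis and of one-carbon metabolism. They were chosen by gene symbol, with earlier results of these data known. Each has 1 named probe set in the platform annotation, so the account rests on 5 of the 14884 named genes of the array. The samples were 2 cultures of AsPC-1, an established human pancreatic adenocarcinoma cell line, 1 kept under a compressive stress of 2.9 mmHg and 1 left uncompressed, each for 24 h as a 3D culture overlaid with collagen gel. Both cultures were of the same line, with no genetic change named in the labels, and total RNA of each went to 1 GeneChip Human Gene 2.0 ST array. With 1 array per condition there is no replicate check and no test or p-value is given: "higher" and "lower" below refer to these 2 arrays, and their number limits the precision. RNA came from whole cultures, so fewer cells of a kind and less RNA per cell cannot be told apart.

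ATF4 is made from an mRNA whose translation increases when stress kinases phosphorylate the initiation factor eIF2, in response to amino-acid shortage, endoplasmic reticulum stress, heme deficiency, mitochondrial stress or double-stranded RNA. It activates genes of amino-acid uptake and synthesis, tRNA charging and redox balance, together with genes that restrain growth. mTORC1, a kinase complex on the lysosome, promotes protein synthesis when amino acids and growth signals are present. DDIT4 and SESN2 restrain it by different routes, DDIT4 (REDD1) through the TSC complex and SESN2, which binds leucine, through the GATOR complexes. mTORC1 itself promotes ATF4 output towards serine synthesis and one-carbon metabolism. The arrays measured RNA only, so neither the ATF4 protein nor the activity of mTORC1 was observed.

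The levels are log2 RMA signals, and a gene was kept for counting where its mean over both arrays reached the median over all named genes, 4.79, which left 7442 genes. All 5 genes were kept. A difference is the compressed minus the uncompressed log2 level, and a gene was counted as higher or lower where this difference reached 1.5-fold, a log2 value of 0.58. At that size 3.95% of the kept genes were higher in the compressed culture and 1.12% were lower. The middle 95% of kept genes had differences between -0.47 and 0.69, around a median of 0.01. Among 150 protein-coding genes with 2 distinct kept probe sets, the spread of a single probe set's difference was 0.19 (SD), a figure for measurement within these arrays and not for the spread between cultures. Of 10 epithelial markers listed, 7 were kept. KRT19 was at 10.79 in the compressed and 10.78 in the uncompressed culture, and EPCAM at 10.43 and 10.77. KRT7 (3.78 and 3.36) and CLDN4 (4.73 and 4.80) had means below the floor, and MUC1 had no named probe set. Of the other cell types checked, the 3 named endothelial markers were below the floor, and so were DCN of fibroblasts (1.82 in the compressed and 1.79 in the uncompressed culture) and CD14 of monocytes (3.71 and 3.65). LUM, lumican, was kept (9.39 and 9.75), as were LYZ (8.82 and 9.04) and CD68 (9.26 and 8.45), which are also expressed outside fibroblasts and leukocytes. Both samples are labelled as AsPC-1 cells, and any part of other cells in the differences was not tested.

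The differences of the 5 genes ran from 1.10 for DDIT4 to -0.37 for PSAT1, a span of 1.47. At the 1.5-fold size, 2 of 5 were higher (DDIT4 and SESN2), against 3.95% of all kept genes, and 0 were lower, against 1.12%. ATF4, PSAT1 and SHMT2 differed by less than that size. Because the 5 were chosen with earlier results of these data known, this count describes them and does not measure an excess.

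ATF4 read 7.87 in the compressed culture and 7.40 in the uncompressed culture. The compressed level was the higher one by 0.47 (1.38-fold), short of the 1.5-fold size. Its difference was at rank 506 from the positive end among the 7442 kept genes, so 93.2% of kept genes had a more negative difference. The size exceeded the spread of a single probe set. Because ATF4 is controlled mainly through translation, its transcript level is only part of its regulation.

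DDIT4, which is induced by many stresses and acts on mTORC1 through TSC1 and TSC2, read 7.28 in the compressed culture and 6.18 in the uncompressed culture. This difference of 1.10 (2.15-fold) was the largest of the 5 and was at rank 52 of the 7442 kept genes. SESN2, a leucine-binding sestrin, read 5.57 in the compressed culture and 4.81 in the uncompressed culture, a difference of 0.75 (1.69-fold) at rank 152. Its uncompressed level lay 0.02 above the floor, in the dim range where RMA shrinks differences and where no detection call was used here.

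PSAT1, the phosphoserine aminotransferase that carries out the middle step of serine synthesis from glycolytic 3-phosphoglycerate, read 7.42 in the compressed culture and 7.78 in the uncompressed culture. The difference of -0.37 (1.29-fold lower) placed it at rank 431 from the negative end. SHMT2, the mitochondrial serine hydroxymethyltransferase that splits serine into glycine and a one-carbon unit, read 6.38 in the compressed culture and 6.56 in the uncompressed culture. Its difference of -0.18 (1.13-fold lower) was at rank 1585 from the negative end and was smaller than the spread of a single probe set, so no direction can be read from it.

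**Figure D1:**
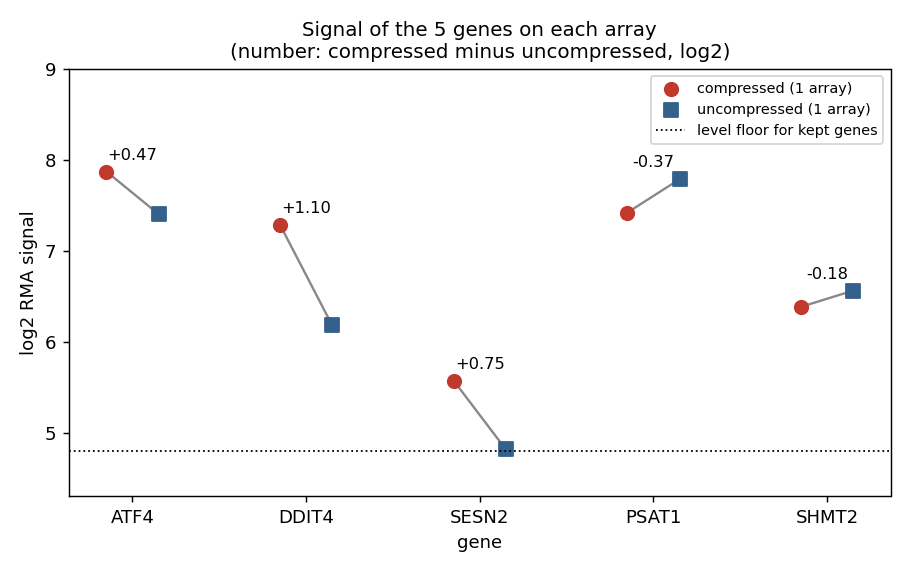
Log2 RMA signal (vertical axis) of ATF4, DDIT4, SESN2, PSAT1 and SHMT2 in the compressed culture (red circles) and the uncompressed culture (blue squares), 1 array each, with the difference printed above each pair and the level floor of 4.79 as a dotted line. ATF4, DDIT4 and SESN2 have the compressed point above the uncompressed one, PSAT1 and SHMT2 below it.

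**Figure D2:**
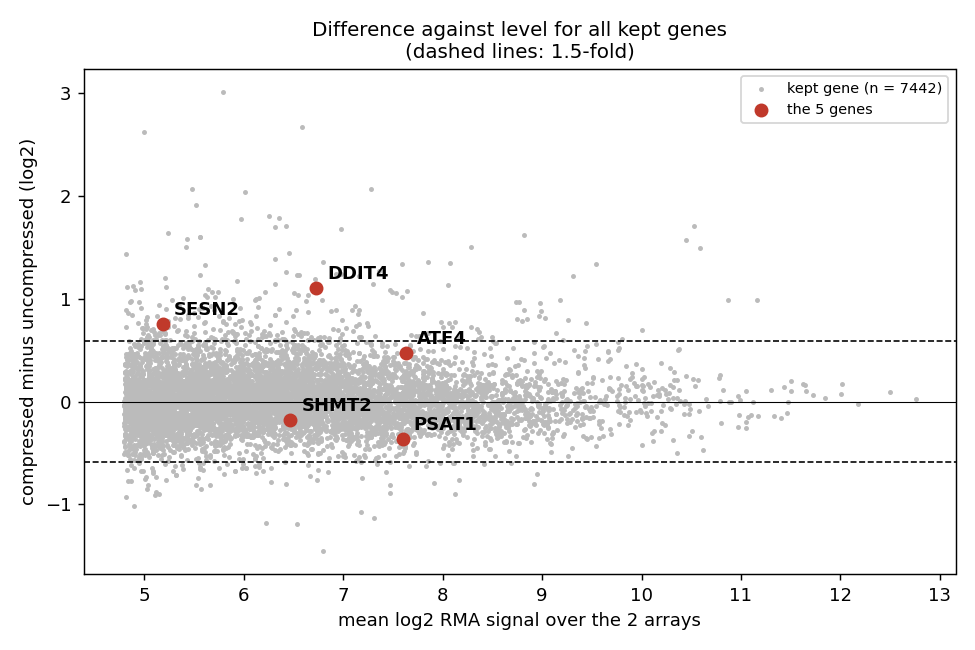
Difference compressed minus uncompressed (vertical axis, log2) against the mean log2 RMA signal over the 2 arrays (horizontal axis) for the 7442 kept genes (grey) and the 5 genes (red), with dashed lines at 1.5-fold. DDIT4 and SESN2 lie above the upper line, and ATF4, PSAT1 and SHMT2 lie between the lines.

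The genes whose pair of levels came nearest to each of the 5, by Euclidean distance over the 2 arrays among kept protein-coding genes, were LCMT1 and ANTXR2 for ATF4 (distances 0.019 and 0.049), STARD4 and FGFBP1 for DDIT4 (0.11 and 0.13) and RUBCN and WDR26 for SESN2 (0.056 and 0.058). For PSAT1 they were PEX3 and TMEM14A (0.035 and 0.041), and for SHMT2 DPH2 and CEP192 (0.010 and 0.016). With 2 arrays this likeness covers only a level and a difference.

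Promoter sequences show what is known of these genes' starts beside their levels. Because ATF4 acts through composite C/EBP-ATF response elements, the letters TGATGNAA were searched. ACGTG, the core of the hypoxia response element, was searched because DDIT4 is also induced by hypoxia. The search covered both strands of the 300 bases from 250 before to 50 after a single RefSeq start per gene (GRCh38.p14). Other starts of a gene were not searched. Of the 5 genes, 4 had a promoter in the RefSeq table, and SHMT2 had none in it. The 250 bases before the start are shown for these 4, from chr22:39520309-39520558 for ATF4, chr10:72273674-72273923 for DDIT4, chr1:28259268-28259517 for SESN2 and chr9:78296875-78297124 for PSAT1, all on the plus strand. Capitals mark ACGTG on either strand.
ATF4: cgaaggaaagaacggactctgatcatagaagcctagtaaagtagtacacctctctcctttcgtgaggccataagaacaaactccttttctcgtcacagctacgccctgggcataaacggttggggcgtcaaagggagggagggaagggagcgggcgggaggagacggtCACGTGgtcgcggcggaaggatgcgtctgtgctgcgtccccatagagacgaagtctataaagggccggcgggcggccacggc
DDIT4: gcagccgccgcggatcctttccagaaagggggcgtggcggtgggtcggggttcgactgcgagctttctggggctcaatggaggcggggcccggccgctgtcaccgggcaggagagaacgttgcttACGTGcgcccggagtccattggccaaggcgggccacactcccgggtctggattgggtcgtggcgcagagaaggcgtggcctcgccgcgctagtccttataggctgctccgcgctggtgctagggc
SESN2: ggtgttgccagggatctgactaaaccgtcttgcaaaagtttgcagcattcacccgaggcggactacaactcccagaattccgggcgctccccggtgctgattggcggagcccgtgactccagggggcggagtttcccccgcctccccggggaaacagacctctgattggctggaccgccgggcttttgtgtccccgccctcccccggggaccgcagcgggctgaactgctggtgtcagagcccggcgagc
PSAT1: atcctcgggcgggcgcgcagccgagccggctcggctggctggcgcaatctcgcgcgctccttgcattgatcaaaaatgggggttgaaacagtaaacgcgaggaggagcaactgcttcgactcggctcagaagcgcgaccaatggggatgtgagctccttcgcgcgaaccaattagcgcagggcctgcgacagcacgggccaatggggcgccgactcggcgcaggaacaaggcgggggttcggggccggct

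The TGATGNAA letters were in 0 of these 4 windows, against 1.44% of the 5884 kept genes with a promoter and 3.67% of all 27305 promoters. ACGTG was in 2 of 4, ATF4 and DDIT4, against 27.2% of the kept promoters. In DDIT4 it begins 125 bases before the start. In ATF4 the match on the minus strand begins 82 bases before the start and overlaps the match on the plus strand by all but 1 base, since together they spell a palindrome. The full cyclic AMP response element TGACGTCA, a palindrome, was in 0 of 4, against 3.42% of kept promoters. A missing match says only that these letters are not in these windows, and known elements of ATF4 targets can lie further upstream or inside the gene.

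Among other genes of the pathway lists the composite letters were found, for example, in the asparagine synthetase gene ASNS, the stress factor gene ATF3, the mitochondrial formate-producing enzyme gene MTHFD1L and the TSC complex gene TSC2. Windows of 30 bases around the match are shown to set the letters beside the levels, from chr7:97872458-97872487 on the minus strand and from chr1:212565205-212565234, chr6:150866346-150866375 and chr16:2047864-2047893 on the plus strand (GRCh38.p14, RefSeq). Capitals mark TGATGNAA.
ASNS: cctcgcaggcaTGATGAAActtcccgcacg
ATF3: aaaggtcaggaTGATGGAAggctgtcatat
MTHFD1L: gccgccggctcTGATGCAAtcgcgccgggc
TSC2: gccccgtcacgTGATGCAAggatcgccggc

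The match begins 68 bases before the start in ASNS, 191 in ATF3, 129 in MTHFD1L and 110 in TSC2. ASNS read 6.61 in the compressed and 6.23 in the uncompressed culture, MTHFD1L 7.06 and 7.23, and TSC2 6.97 and 6.79, none at the 1.5-fold size. ATF3 read 5.21 in the compressed and 4.20 in the uncompressed culture, a log2 difference of 1.01 that is past that size, but its mean lay below the floor, so it is not among the kept genes counted next. Over all kept genes with the composite letters, 0 of 85 were at least 1.5-fold higher and 1, C1QTNF9, was lower (4.84 in the compressed and 5.60 in the uncompressed culture, named after its values were seen), with a median difference of -0.02. Of the 5799 kept genes whose windows lack the letters, 210 were higher (3.62%) and 49 lower (0.845%), with a median of 0.01. For ACGTG, 40 of 1599 genes with the letters were higher (2.5%), against 170 of 4285 without them (3.97%). No test was made of these counts.

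Close relatives of the 5 genes did not pass the 1.5-fold size with a kept level. In the sestrin family, SESN1 read 3.97 in the compressed and 4.06 in the uncompressed culture, and SESN3 read 2.64 and 2.99. DDIT4L (REDD2), the paralog of DDIT4, read 3.87 in the compressed and 4.43 in the uncompressed culture. All 3 lay below the floor on both arrays, so no fold is given for them and only SESN2 and DDIT4 of these 5 genes were kept. In serine synthesis, PHGDH, the first enzyme, was below the floor (3.90 and 4.09), and PSPH, the last, read 7.27 in the compressed and 7.23 in the uncompressed culture, a difference of 0.04. SHMT1, the cytosolic counterpart of SHMT2, read 5.71 in the compressed and 5.80 in the uncompressed culture (-0.09).

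**Figure D3:**
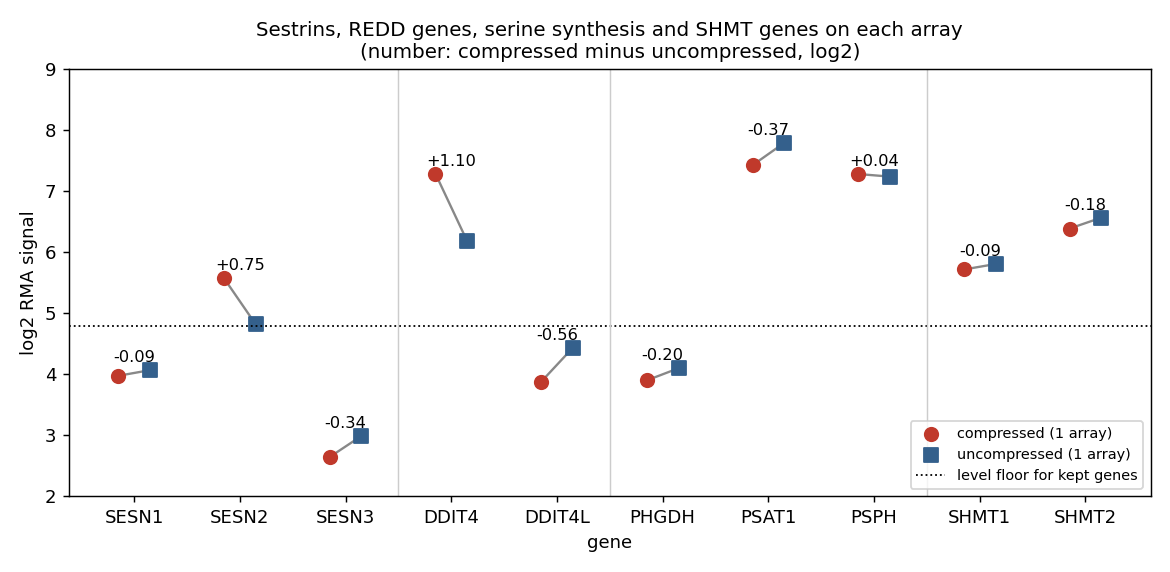
Log2 RMA signal (vertical axis) of the sestrin genes, DDIT4 and DDIT4L, the 3 serine synthesis genes and the 2 SHMT genes in the compressed culture (red circles) and the uncompressed culture (blue squares), 1 array each, with the difference printed above each pair and the level floor as a dotted line. SESN1, SESN3, DDIT4L and PHGDH lie below the floor on both arrays, and only SESN2 and DDIT4 differ by more than 0.58.

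Among genes known as targets of ATF4 and of the amino-acid response, no kept gene other than DDIT4 and SESN2 reached the 1.5-fold size, and the dimmer ATF3 and DDIT3 had higher compressed readings. Of 42 listed, 24 had a named probe set and 16 were kept, and of these 16 only DDIT4 and SESN2 were at least 1.5-fold higher (0 lower), where 3.95% of all kept genes were higher, with a list median of 0.13 against 0.01 over all kept genes. Without ATF4-list members already described (DDIT4, SESN2, PSAT1 and SHMT2), 0 of 12 passed in either direction, 8 were positive, 3 negative and 1 equal on both arrays (50.8% of all kept genes were positive), and the median was 0.13. TRIB3, a pseudokinase that feeds back on ATF4, came closest: it read 6.40 in the compressed and 5.82 in the uncompressed culture, a difference of 0.58 (1.49-fold), just under the size rule. ASNS differed by 0.38, EIF4EBP1, which encodes the translation repressor 4E-BP1, by 0.36, and CTH, the cysteine-producing enzyme of transsulfuration, by 0.30. On the negative side were GDF15, a stress-induced cytokine (-0.29), and the basic leucine zipper genes ATF5 (-0.22) and JDP2 (-0.18). The stress factor genes ATF3 (5.21 in the compressed and 4.20 in the uncompressed culture) and DDIT3 (3.83 and 2.96), which encodes CHOP, had means below the floor. They are therefore not among the kept genes, and both are reported here after their values were seen. When dim genes were counted too, 4 of 24 genes of the list were higher, ATF3 and DDIT3 being the added ones, against 3.76% of all 14884 named genes. DDIT4 and SESN2 were chosen with earlier results of these data known and ATF3 and DDIT3 are dim. This count therefore does not measure an excess in the list. No named probe set was found for any of 13 amino-acid transporter genes, nor for CHAC1, CEBPB, MTHFD2 or PPP1R15A, which were not analysed here.

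The cytosolic aminoacyl-tRNA synthetases, which charge tRNAs and include many ATF4 targets, had 17 kept genes of 20. None passed 1.5-fold in either direction, where 3.95% of all kept genes were higher and 1.12% lower. Of the 17, 6 were positive and 11 negative, where 50.8% and 46.8% of all kept genes were. The median was -0.04. CARS1 (0.36) and SARS1 (0.32) had the largest positive differences and VARS1 (-0.37) and IARS1 (-0.23) the largest negative ones. The letters TGATGNAA were in 6 of the 14 synthetase promoters found (AARS1, CARS1, IARS1, MARS1, NARS1 and TARS1), against 1.44% of kept promoters. Of these 6 genes CARS1 alone had a positive difference. The differences of AARS1 (-0.04), MARS1 (-0.07), NARS1 (-0.12) and TARS1 (-0.03) were smaller than the spread of a single probe set. No direction can be read from them. The second probe set of VARS1 differed by -0.14.

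Upstream of ATF4, the transcripts of the eIF2 kinases differed by less than 1.5-fold. EIF2AK4 (GCN2), which senses uncharged tRNA, read 6.89 in the compressed and 6.51 in the uncompressed culture, a difference of 0.38. EIF2AK1 (HRI) and EIF2AK2 (PKR) differed by -0.05 and -0.06. EIF2AK3 (PERK) read 4.77 in the compressed and 4.73 in the uncompressed culture, just below the floor. IMPACT, an inhibitor of GCN2, differed by -0.38 and GCN1, its activator, by -0.19. Of 7 kept genes in this list of kinases and regulators, 0 were higher and 0 lower at the 1.5-fold size (median -0.06). Over all kept genes 3.95% were higher and 1.12% lower, so a list this short can hold none. These kinases act by phosphorylation, which the arrays do not measure.

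Of the folate one-carbon genes, to which SHMT2 belongs, 0 of 12 kept genes passed 1.5-fold in either direction. Over all kept genes 3.95% were higher and 1.12% lower. Their median difference was -0.11, and 8 were negative, 3 positive and 1 equal on both arrays, where 46.8% of all kept genes were negative. Most of these differences, SHMT2 (-0.18) and MTHFD1L (-0.17) among them, were smaller than the spread of a single probe set. TYMS, thymidylate synthase, differed by -0.29. FTCD differed by -0.26, but its compressed level (4.72) lay below the floor and its uncompressed level (4.98) above it. FPGS, which adds glutamate tails to folates, had the largest positive difference, 0.42. In the neighbouring methionine and transsulfuration list, AHCY, which clears S-adenosylhomocysteine, differed by -0.30 and CTH by 0.30, and 0 of 4 kept genes passed.

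Among the brakes on mTORC1, DDIT4 and SESN2 stood on 1 side of the size rule and DEPTOR on the other. DEPTOR, a subunit that binds and inhibits mTOR, read 6.51 in the compressed and 7.19 in the uncompressed culture, a difference of -0.68 (1.60-fold lower), and 40 of the 7442 kept genes had a more negative difference. Of 17 kept brake genes, 2 were higher and 1 was lower at the 1.5-fold size, with a median of 0.15, where 3.95% of all kept genes were higher and 1.12% lower. Both higher genes are among the 5 described here, which were chosen with earlier results of these data known. Of the 15 other than DDIT4 and SESN2, 10 were positive, 3 negative and 2 equal on both arrays. Over all kept genes 50.8% were positive and 46.8% negative. The median of these 15 was 0.14. Several of the positive differences, DEPDC5 and NPRL3 among them, were smaller than the spread of a single probe set. TSC1, a partner in the complex through which DDIT4 acts, read 6.76 in the compressed and 6.26 in the uncompressed culture (0.51, 1.42-fold), and TSC2 differed by 0.18. The GATOR1 subunit genes, which act downstream of SESN2, differed by 0.16 for NPRL3, 0.14 for DEPDC5 and -0.23 for NPRL2. TXNIP, a glucose-responsive arrestin-like gene, differed by 0.28, and its second probe set by 0.23.

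Among listed genes that these brakes act on, no kept gene reached the 1.5-fold size, where 3.95% of all kept genes were higher and 1.12% lower. At such shares a short list can hold none. Of 13 kept genes of the mTORC1 core and its activators, 0 were higher and 0 lower, with a median of 0.05. RHEB, the GTPase that activates mTORC1 and that the TSC complex switches off, differed by 0.41, and PDPK1, an upstream kinase gene, by 0.38 (0.17 in its second probe set). MTOR itself differed by 0.18. Of 10 kept effector genes, 0 passed (median 0.05), and LPIN1, a phosphatidate phosphatase, and GRB10, an adaptor, both mTORC1 substrates, differed by 0.54 and 0.48. EEF2K, the kinase of elongation factor 2, differed by -0.29.

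**Figure D4:**
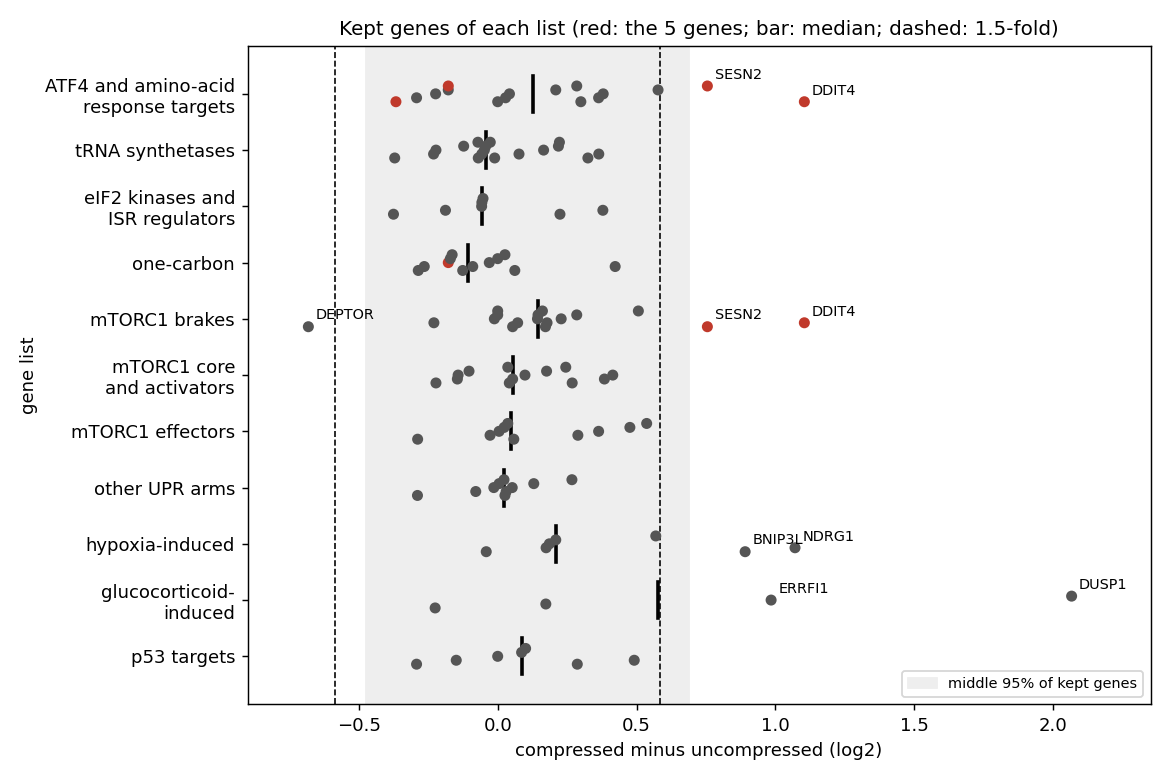
Difference compressed minus uncompressed (horizontal axis, log2) of each kept gene, by gene list (vertical axis), with red points for the 5 genes, a black bar for each list's median, dashed lines at 1.5-fold and a grey band for the middle 95% of kept genes. In the ATF4 target list and the brake list, DDIT4 and SESN2 lie right of the upper line, and DEPTOR is the 1 gene left of the lower line.

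DDIT4 and SESN2 also have inducers other than ATF4. Genes that share them were read from lists for each, also chosen with earlier results of these data known. The hypoxia-induced list had 2 of 7 kept genes at least 1.5-fold higher and 0 lower, where 3.95% of all kept genes were higher. NDRG1 read 6.28 in the compressed and 5.21 in the uncompressed culture (1.07), close to the difference of DDIT4, and BNIP3L, a mitophagy receptor gene, differed by 0.89. ADM, adrenomedullin, differed by 0.57, and LDHA, lactate dehydrogenase A, by -0.04. The list's median was 0.21. BNIP3, below the floor, read 3.29 in the compressed and 4.02 in the uncompressed culture, and was named after its values were seen. Of the glucocorticoid-induced genes, 2 of 4 kept were higher, against the same 3.95%, DUSP1 (2.07) and ERRFI1 (0.98), both also induced by growth factor signalling, while PER1 differed by 0.17 and FKBP5 by -0.23. The median of these 4 was 0.58. Without the level filter it was -0.04, over 9 genes.

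Of the p53 targets, which share an inducer with SESN2, 0 of 7 kept genes passed in either direction (median 0.09). Over all kept genes 3.95% were higher and 1.12% lower, so a list this short can hold none. PLK3, a stress-activated kinase gene, differed by 0.49 and TP53I3 by 0.29, and GDF15 and BBC3 by -0.29 and -0.15. In the other arms of the unfolded protein response, 0 of 10 kept genes passed, against the same shares (median 0.02). XBP1 differed by 0.27 and the chaperone gene CALR by -0.29 (-0.48 after repeated quantile normalization). ERN1, which encodes the sensor IRE1, read 4.91 in the compressed and 3.96 in the uncompressed culture, with a mean below the floor, and was named after its values were seen. How far any of these inducers accounts for DDIT4 or SESN2 was not tested.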

How the data were processed

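The deposited values are log2 RMA signals per probe set, for which the submitters' processing notes name RMA and the Transcriptome Analysis Console. No version is stated, and the genome build is not given in the sources used here. RMA equalises the distributions of the arrays, so a change shared by all genes is removed and differences near background are compressed. The table held 53617 probe sets. The platform annotation named 16098 of them, each with 1 gene, and all 16098 identifiers matched the RefSeq gene table (GRCh38.p14), giving 14884 genes.

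Each group, taken from the treatment label, holds 1 sample. A gene with several probe sets took the one with the highest mean. Genes were kept at or above the median gene mean (4.79), and counted at 1.5-fold, with no test. The 5 genes, the gene lists and the rules were chosen with earlier results of these data known. Named genes are the 5, up to 4 kept genes in each direction from each list, all sestrin, REDD and serine synthesis genes, the eIF2 kinases and the 2 nearest genes of each of the 5; any other gene illustrates a list or a motif, and was chosen after its values were seen. Motif windows came from RefSeq promoters, with a single start taken per gene. Alternatives were other normalizations (loess with span 0.3, median centring, repeated quantile normalization), filters, probe set rules and sizes. The counting rule was run on simulated shifts of 2-fold with noise near the spread of a single probe set. That run checks the code and not the calls, since it holds no spread between cultures. Python 3.11.15, NumPy 2.4.6, pandas 2.3.3, statsmodels 0.14.6 and matplotlib 3.10.9 were used.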

Additional observations from a re-analysis of the deposited data

How the results depend on the processing

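No paired analysis was possible because each group holds 1 sample and the result comes from no test. Over the main setting, the mean of all probe sets, loess correction, median centring and repeated quantile normalization, the difference ranged from 0.44 to 0.47 for ATF4, 1.05 to 1.10 for DDIT4, 0.74 to 0.76 for SESN2, -0.39 to -0.37 for PSAT1 and -0.25 to -0.18 for SHMT2, with no change of sign or of side of 1.5-fold. At a size of 2-fold SESN2 (0.75) was no longer counted, and at a smaller size of 0.32 on the log2 scale ATF4 (0.47) and PSAT1 (-0.37) were, by construction. The count of higher and lower genes was 294 and 83 in the main setting, 560 and 421 when dim genes were counted too, 137 and 30 with a filter at the 75th percentile, 71 and 6 at 2-fold and 1005 and 616 at the smaller size, and 53 were lower among protein-coding genes alone. The sestrin and REDD median (0.93 over 2 kept genes) was -0.09 over 5 genes with no filter, and the amino-acid transporter and endothelial lists had no kept gene. With repeated quantile normalization the median of the other unfolded protein response arms was -0.02. DEPTOR ranged from -0.73 to -0.68 and TRIB3 from 0.51 to 0.58. Signal over background is unknown for every gene.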
